A study of Homo sapiens with 6 samples.

Results

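In HepG2 cells, 77 genes were silent in every control library and on in every library from cells with KIF11 knocked down. A gene was counted as silent where each sh-ctrl library held at most 3 raw reads for it, and as on where each sh-KIF11 library held at least 10. The genes were chosen by these very counts, so their counts and folds are a description of the choice and carry no test. The table of the series held 20030 genes, 6863 of them were silent in sh-ctrl, and the 77 made up 1.12% of the silent genes. HepG2 is an established human line grown from a liver tumour and labelled a hepatoma cell. The 3 sh-ctrl libraries came from cells carrying a control short hairpin RNA, and the 3 sh-KIF11 libraries from cells carrying a short hairpin RNA against KIF11. The hairpins were cloned in the lentiviral vector pLKO.1, so the control cells also carried a vector, and the labels do not say whether the 3 sh-KIF11 libraries carried the same hairpin. Polyadenylated RNA was read from a stranded library kit, and the comparison asks which genes change when KIF11 is reduced, in a study of senescence in hepatoma cells.

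KIF11 encodes a kinesin motor that pushes the poles of the mitotic spindle apart, and cells that lack its activity cannot divide normally. A hepatoma line such as HepG2 keeps many genes of the hepatocyte on, among them the plasma proteins, and keeps off most genes that belong to neurons, muscle, germ cells or blood. Genes that are off can lack a bound activator or lie in closed chromatin, and a few reads from such a gene do not show that any cell used it. In bulk RNA, more cells that express a gene and more RNA per expressing cell cannot be told apart.

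The libraries held 18167773 to 19583282 reads assigned to genes. KIF11 itself went from 1976, 2088 and 2039 counts in sh-ctrl to 1448, 1478 and 1240 in sh-KIF11, a log2 change of -0.75 (SE 0.0573, edgeR adjusted p = 4.216e-15). Of 12369 genes that passed the filter on low counts, edgeR called 4254 higher (34.4%) and 4294 lower (34.7%) in sh-KIF11, a balance that rests on the scaling: with libraries scaled by their totals alone 6621 were higher and 2373 lower, and limma on FPKM gave 5589 and 2619. All 16 hepatocyte markers were expressed in both groups, and 15 of the 16 fell (14 when libraries were scaled by their totals alone), their summed level going from 40410 to 42160 CPM (counts scaled to a common library size) in sh-ctrl down to 17710 to 18990 CPM in sh-KIF11. The scaling factors (TMM) were 0.922 to 0.926 in sh-ctrl and 1.08 to 1.09 in sh-KIF11, and 3 counts stood for 0.166 to 0.178 CPM in sh-ctrl and for 0.145 to 0.152 CPM in sh-KIF11.

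The opposite pattern was not found. No gene had at least 10 counts in each sh-ctrl library and at most 3 in each sh-KIF11 library, 0.0% of the 6090 genes silent in sh-KIF11. The nearest to it was TMPRSS3, a membrane serine protease, with 13, 6 and 9 counts in the controls and 2, 2 and 1 after knockdown. SGK3, a protein kinase, followed with 14, 5 and 14 counts against 3, 3 and 2. Between the groups, 5925 genes were silent in both, 938 were silent in sh-ctrl alone and 165 were silent in sh-KIF11 alone. The difference between both directions was seen at every pair of limits that gave any gene. With at most 5 counts in the silent group, 160 genes were on in sh-KIF11 alone and 4 in sh-ctrl alone. With a minimum of 5 counts, the numbers were 214 and 7, and with a minimum of 20 they were 24 and 0.

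**Figure D1:**
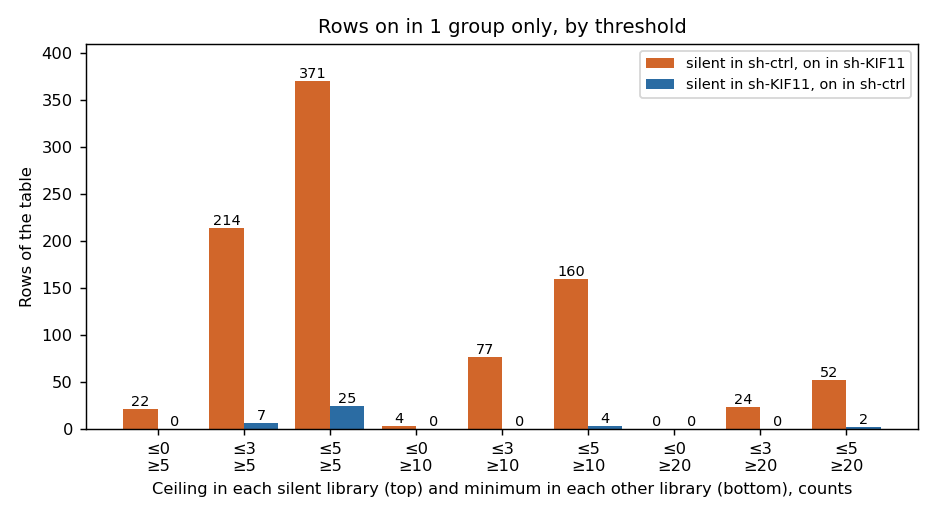
Number of genes (bars, labelled) that were at or under the ceiling in each library of one group and at or over the minimum in each library of the other, for 9 pairs of limits in raw counts. Orange bars are genes on in sh-KIF11 only and blue bars genes on in sh-ctrl only; at the limits used here, 3 and 10, the bars stand at 77 and 0.

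The genes were low in sh-KIF11 as well, and the choice itself fixed that they lay apart from sh-ctrl. Summed over the 77, the counts came to 95, 90 and 80 in sh-ctrl and to 1926, 2235 and 2141 in sh-KIF11, which is at most 0.0118% of any library. The median gene had 1 count in each sh-ctrl library and 18, 22 and 22 in the sh-KIF11 libraries. In sh-ctrl, 25 of the 77 had at most 1 count in each library, and 32 reached the ceiling of 3 in a library or more. In sh-KIF11, 24 had at least 20 counts in each library and 6 had at least 50. These 6 were CSMD3, NAV3, AMOTL1, MYBPH, LYVE1 and MUC19, and they held 25.1% to 27.0% of the counts of all 77. The lowest sh-KIF11 count was at least 10 times the highest sh-ctrl count for 37 genes and at least 5 times for 64. In sh-KIF11, the highest count was a median of 1.5 times the lowest and more than 2 times for 7 genes. The minimum of 10 in each library narrows this spread. The lowest of the 3 counts fell in sh-KIF11 1 for 39 genes, ties included, and in sh-KIF11 2 and sh-KIF11 3 for 23 and 22.

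**Figure D2:**
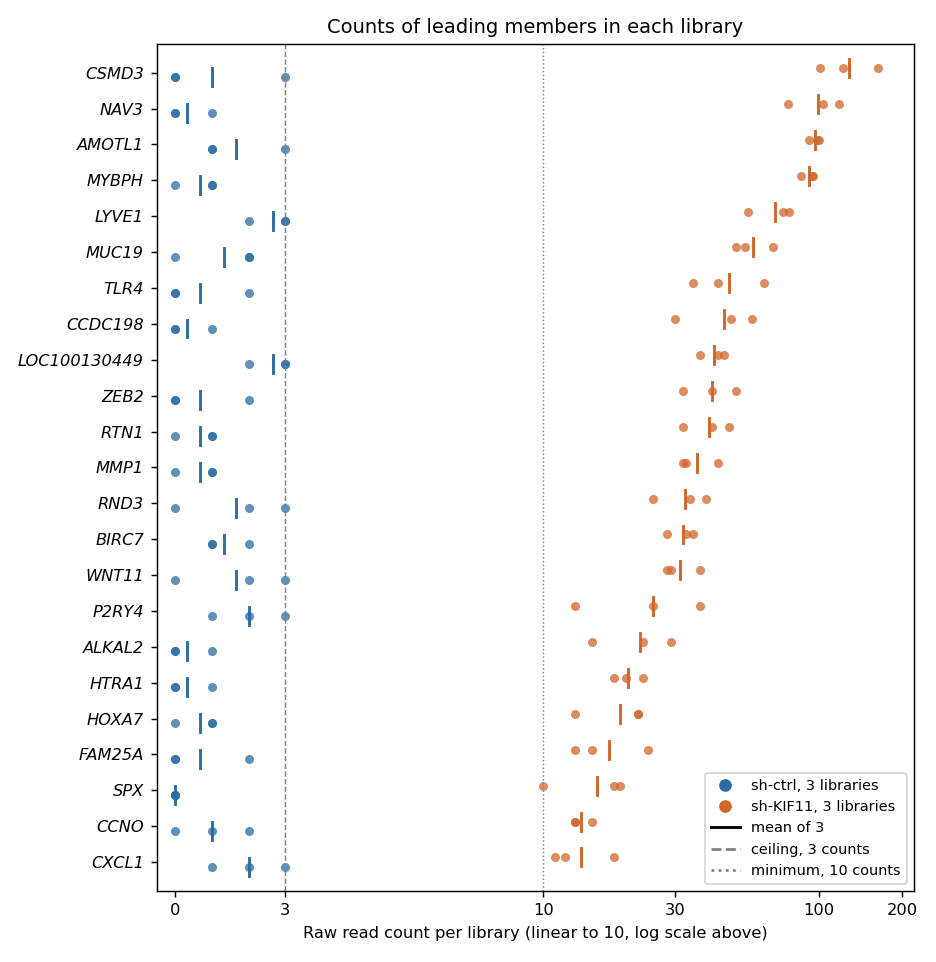
Raw counts of 23 leading genes in each of the 3 sh-ctrl libraries (blue points) and the 3 sh-KIF11 libraries (orange points), with the mean as a vertical stroke, on an axis that is linear to 10 and logarithmic above. Every blue point lies at or left of the ceiling of 3 and every orange point at or right of the minimum of 10, which the choice of genes fixed; CSMD3, NAV3, AMOTL1 and MYBPH lie farthest to the right.

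A fold against so few reads is known only within wide limits. Summed counts were divided by the summed scaled library sizes, and the ratio is given with its exact 95% Clopper-Pearson interval from the split of the counts, which covers counting error only. For the 4 genes at 0 in all sh-ctrl libraries, 3 counts over the group stood in for 0. The lower limit, or the fold itself for those 4, is the lower bound of the fold. The folds ran from 4.98 to 259.9 with a median of 16.9, and the lower bounds from 2.21 to 46.3 with a median of 5.97. The bound was over 5 for 46 genes, over 10 for 17 and over 20 for 5, which were NAV3, CSMD3, MYBPH, AMOTL1 and CCDC198.

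**Figure D3:**
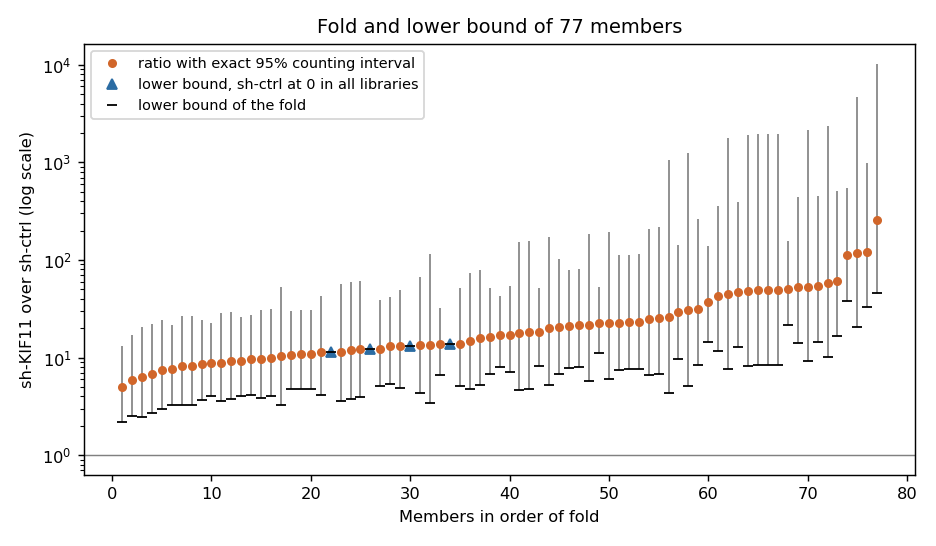
Fold of sh-KIF11 over sh-ctrl (logarithmic axis) for the 77 genes in rising order. Orange points are ratios with their exact 95% counting interval as grey lines, blue triangles are the 4 genes at 0 in all sh-ctrl libraries, and black strokes mark the lower bound, which lies between 2.21 and 46.3.

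The limits cut through a continuous range of counts. Just inside were PDE2A, with 10, 24 and 41 counts in sh-KIF11, BEAN1 with 13, 24 and 10, and SPX with 18, 10 and 19. In all, 11 genes had 10 as their lowest sh-KIF11 count. Just outside were 20 silent genes whose lowest sh-KIF11 count was 9, among them MEI1 with 9, 18 and 22, PMEPA1 with 9, 10 and 28, and DCDC1 with 9, 22 and 12. On the other side, 40 genes missed the choice by a single sh-ctrl count, with 4 as their highest. They included genes with more sh-KIF11 reads than nearly all of the 77, such as ABCA12, a lipid transporter of the skin, going from 4, 3 and 3 counts in sh-ctrl to 104, 149 and 161 in sh-KIF11. IP6K3, an inositol phosphate kinase, had 4, 0 and 2 counts against 50, 54 and 49, and GOLM1, a Golgi membrane protein, had 2, 4 and 3 against 59, 74 and 41.

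Genes of cell shape and the cytoskeleton were the role with the most members (10), if the mixed remainder is left aside. Roles were assigned from background knowledge, with no such grouping of the other silent genes. Of members with a gene ontology term, 1 of 54 (1.85%) had cytoskeleton, against 1.63% of 4658 other silent genes. The lower bounds of the 10 ran from 2.46 to 46.3 with a median of 6.16. The median bound was highest for genes of the matrix and its proteases (8.41). Summed, these 10 gave 12, 11 and 9 counts in the controls and 386, 428 and 394 after knockdown. NAV3 (chr12:77571862-78213010, GRCh38), a neuron navigator that binds growing microtubule ends, went from 0, 0 and 1 count in sh-ctrl to 77, 118 and 103 in sh-KIF11. That is 259.9-fold, with an interval of 46.3 to 10300 and the largest lower bound among the 77. Of its relatives, NAV1 stayed near 0 in all 6 libraries and NAV2 was higher in sh-KIF11 (log2 change 0.31, SE 0.0851, edgeR adjusted p = 0.001691). AMOTL1 (chr11:94706460-94876748), an angiomotin-like protein of cell junctions that binds YAP, had 3, 1 and 1 counts in the controls and 92, 100 and 98 after knockdown, or 50.6-fold (21.4 to 157). Of the other angiomotins, AMOTL2, well expressed in sh-ctrl, was higher in sh-KIF11 by a log2 change of 0.67. AMOT, at 10, 1 and 12 counts in sh-ctrl, was higher by 1.47. AMOT passed the filter on low counts through sh-KIF11 alone, so the filter set its direction and it does not show that the family rose together. MYBPH (chr1:203167811-203179214), a myosin binding protein of skeletal muscle, went from 0, 1 and 1 counts in sh-ctrl to 95, 94 and 86 in sh-KIF11, or 119.9-fold (32.9 to 995). RND3 (chr2:150468193-150487695), which lowers actin contractility, had 0, 3 and 2 counts against 34, 39 and 25, or 17.1-fold (7.08 to 53.8). Its relatives went the other way, RND1 falling by 1.34 and RND2 falling by 2.29 on the log2 scale. The other 6 were lower, at 10 to 20 counts per sh-KIF11 library, and among them ERC2, a scaffold of the presynaptic active zone, was at 0 in all sh-ctrl libraries and at 17, 13 and 12 after knockdown, a level at least 12.2-fold higher.

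Cell adhesion gave the gene with the most counts. CSMD3, a giant membrane protein with CUB and sushi domains found mainly in brain, had 0, 3 and 0 counts in the controls and 101, 163 and 122 after knockdown, or 112-fold (38.1 to 547). Its relative CSMD1 was expressed in both groups and was higher in sh-KIF11 (log2 change 0.49, edgeR adjusted p = 0.04428), and CSMD2 was at 0 in the controls and at 0, 2 and 0 counts after knockdown. PCDHGB2 and PCDHGA4 belong to the gamma protocadherins, neural adhesion proteins whose genes share their last exons, so reads from those exons cannot be given to 1 gene. PCDHGB2 had 0, 1 and 3 counts against 23, 17 and 23. PCDHGA4 had 3, 2 and 2 against 16, 11 and 13, the smallest fold of the 77 (4.98, 2.21 to 13.2). The cluster, picked after these 2 were seen, had 22 genes, 14 of them silent in sh-ctrl. Of all silent genes, 1.12% met the rule. All 5 other tested genes of the cluster were higher in sh-KIF11, against 34.4% of all tested genes. Because of the shared exons, these 5 are not separate observations. PCDHGA1, with 4, 7 and 4 counts against 19, 20 and 10, passed the filter on low counts through sh-KIF11 alone, which set its direction.

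Among the 8 secreted ligands, the sh-KIF11 counts were between 10 and 41. WNT11 (chr11:76186325-76210761), a WNT ligand that acts mostly without beta-catenin, had 3, 0 and 2 counts in the controls and 37, 29 and 28 after knockdown, or 16.4-fold (6.78 to 51.7). It was the only one of 12 silent WNT ligands to switch on by the rule, where 1.12% of all silent genes did, and it was named with its result known. WNT6, silent too, went from 1, 0 and 0 counts in sh-ctrl to 4, 13 and 13 in sh-KIF11 and so missed it in 1 library. Of the WNT ligands tested, WNT7B (log2 change 2.27) and WNT9A (2.77) were higher and WNT3 was lower in sh-KIF11, the fall of WNT3 being lost when libraries were scaled by their totals alone. WNT9A, with 2, 1 and 4 counts against 15, 21 and 21, passed the filter on low counts through sh-KIF11 alone, which set its direction. EREG (chr4:74365145-74388749), epiregulin, a ligand of the EGF receptor family, had 1, 0 and 0 counts in the controls and 14, 14 and 23 after knockdown, or 44.5-fold (7.63 to 1791). Its neighbour and relative AREG, amphiregulin, went from 16, 22 and 23 counts to 139, 188 and 197 (log2 change 2.90, SE 0.205, edgeR adjusted p = 3.795e-16). HBEGF and TGFA, ligands of the same receptors, had log2 changes of 0.33 and 0.08 that did not pass the test (edgeR adjusted p = 0.1646 and 0.4586). Both passed it when libraries were scaled by their totals alone, HBEGF with a log2 change of 0.56 (edgeR adjusted p = 0.01726) and TGFA with 0.31 (edgeR adjusted p = 0.002703).

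CXCL1 (chr4:73869393-73871308), a neutrophil chemokine, went from 2, 1 and 3 counts in sh-ctrl to 11, 12 and 18 in sh-KIF11, a modest 5.96-fold (2.52 to 17.2). Its close paralogs CXCL2 and CXCL3 share sequence with it, and both were too low to test: CXCL2 had 10, 6 and 7 counts in the controls and 27, 2 and 9 after knockdown, and CXCL3 had 3, 3 and 2 against 4, 0 and 4. Of the related chemokines, CXCL8 and CXCL5 rose, CXCL8 from 5.71 ± 0.504 to 30.6 ± 6.87 CPM (mean ± SD, n = 3 each; log2 change 2.42, edgeR adjusted p = 7.558e-21), and CXCL5 from 4, 8 and 5 counts to 37, 27 and 55. CXCL5 passed the filter on low counts through sh-KIF11 alone, which set its direction. ALKAL2 (chr2:279558-288091), a ligand of the receptor ALK, had 0, 0 and 1 count against 23, 15 and 29, or 58.4-fold (10.1 to 2342). The receptors it could act on were nearly silent, with ALK at 0 in all 6 libraries and LTK at 1, 0 and 3 counts in sh-KIF11. SPX, the neuropeptide spexin, was at 0 in all sh-ctrl libraries and at 18, 10 and 19 after knockdown, a level at least 13.7-fold higher. DRAXIN and NPTX1, both secreted in the nervous system, and FGF1, a fibroblast growth factor, made up the 8.

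Receptors, coreceptors and a protein of antigen display numbered 8. TLR4 (chr9:117704403-117724735), the receptor for bacterial lipopolysaccharide on myeloid cells and endothelium, had 0, 0 and 2 counts in the controls and 35, 63 and 43 after knockdown, or 61.5-fold (16.7 to 513). Its partners moved in different directions: LY96, the coreceptor MD-2, was higher in sh-KIF11 (log2 change 1.14, edgeR adjusted p = 0.001594) and CD14 was lower (falling by 1.78, edgeR adjusted p = 0.0001855). LYVE1 (chr11:10556966-10568665), a hyaluronan receptor of lymphatic and liver sinusoidal endothelium, had 3, 2 and 3 counts against 55, 74 and 78, or 22.6-fold (11.2 to 53.0). STAB2, another receptor of sinusoidal endothelium, stayed at 0 in all sh-KIF11 libraries. STAB1 had 21, 17 and 14 counts against 7, 9 and 11 and passed the filter on low counts through sh-ctrl, so its direction was not free of the filter either. P2RY4 (chrX:70258166-70260204), a receptor for UTP, had 3, 2 and 1 counts against 13, 37 and 25, which spread more between replicates than most. HLA-DOA, which tunes peptide loading of class II molecules in B cells, spread as widely, with 2, 1 and 0 counts against 13, 38 and 28. PTGIR, the prostacyclin receptor, EPHA10, GRID1 and RGMA were the other 4.

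Genes for matrix proteins, mucin, proteases and their inhibitors numbered 7. MMP1 (chr11:102789919-102798160), interstitial collagenase, went from 1, 0 and 1 counts in sh-ctrl to 33, 43 and 32 in sh-KIF11, or 47.1-fold (12.7 to 394). MMP14 was higher in sh-KIF11 (log2 change 1.21), and MMP10 was at 0, 2 and 2 counts there. MMP3, next to MMP1, was low in both groups, with 6, 8 and 12 counts against 22, 17 and 32 (log2 change 1.24). MMP3 passed the filter on low counts through sh-KIF11, so its direction was not free of the filter. SERPINB2, the plasminogen activator inhibitor PAI-2, had 0, 1 and 0 counts against 12, 25 and 19, or 48.9-fold (8.41 to 1963). HTRA1 (chr10:122461553-122514907), a secreted serine protease, had 0, 1 and 0 counts against 20, 23 and 18, or 53.2-fold (9.20 to 2136). MUC19, a gel-forming mucin of salivary glands, had 2, 2 and 0 counts against 68, 54 and 50, or 37.5-fold (14.4 to 139). Its mean level per length, in FPKM, was among the lowest 3 of the 77. The matrix genes BGN, FBLN2 and COL17A1 had 15 to 42 counts in sh-KIF11. FBLN2 switched on while FBLN1, its abundant relative, fell by 0.86 on the log2 scale.

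The 4 regulators of transcription were genes of development. ZEB2 (chr2:144384081-144520119), a repressor of epithelial genes, had 0, 0 and 2 counts in the controls and 50, 41 and 32 after knockdown, or 53.6-fold (14.5 to 448). ZEB1 was on in sh-ctrl and was higher in sh-KIF11 by a log2 change of 0.87. VIM, a mesenchymal gene often seen with both, had 18, 20 and 0 counts in the controls and 3, 0 and 3 after knockdown, too few to test. In a list of fibroblast and mesenchyme markers, 2 genes were tested: ACTA2 was higher (log2 change 1.03) and PDGFRB lower (falling by 1.16). The summed level of that list, mostly ACTA2, went from 93.4 to 98.6 CPM in sh-ctrl up to 186 to 198.5 CPM in sh-KIF11. HOXA7 (chr7:27153716-27156675), a homeobox gene of the trunk, had 1, 1 and 0 counts against 13, 22 and 22, or 24.9-fold (6.57 to 210.2). Of the 11 HOXA genes, 4 were silent in sh-ctrl, and HOXA7 was the one that met the rule, where 1.12% of all silent genes did. The HOXA genes were picked after HOXA7 was seen. MECOM, which marks blood stem cells, and MDFI, which holds back myogenic factors, had 19 to 28 and 15 to 30 counts in sh-KIF11.

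Only CYP1A2, of the 77, is known chiefly from hepatocytes, where it oxidises drugs and caffeine. It had 3, 3 and 1 counts in the controls and 18, 29 and 24 after knockdown, or 8.85-fold (4.08 to 22.8). CYP1A1, its neighbour and a target of the same aryl hydrocarbon receptor, went from 41, 48 and 31 counts to 213, 280 and 345 (log2 change 2.61, SE 0.170, edgeR adjusted p = 3.072e-17), and CYP1B1 stayed at 0, 2 and 2 counts. CYP11A1, which starts steroid synthesis, had 2, 2 and 1 counts against 18, 14 and 19. The remaining 5 enzymes, ALDH1A3, GALNT7, PDE2A, PLCB2 and DGKH, had 10 to 41 counts in sh-KIF11. Among the 4 transporters and channels, KCNF1 (chr2:10911934-10914225), a silent subunit of potassium channels, had 0, 0 and 1 count against 17, 19 and 19, or 48.0-fold (8.26 to 1929). SLC16A12, a creatine transporter of kidney and eye, was at 0 in all sh-ctrl libraries and at 11, 12 and 22 after knockdown, a level at least 13.1-fold higher. SIDT1 and SLC12A8 made up the rest.

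BIRC7 (chr20:63235905-63240495), also called livin, an inhibitor of apoptosis found in melanoma, went from 1, 1 and 2 counts in sh-ctrl to 28, 35 and 33 in sh-KIF11, or 20.9-fold (7.92 to 78.4). BIRC5, survivin, which is made in dividing cells, fell by 0.996 on the log2 scale. ASB2 and KLHL4, adaptors of ubiquitin ligases, had 14 to 39 counts in sh-KIF11. CCNO (chr5:55231152-55233608), a cyclin needed for multiple cilia, had 1, 2 and 0 counts against 15, 13 and 13, or 11.9-fold (3.80 to 60.2). Of other genes of ciliogenesis, MCIDAS and GMNC stayed at 0 or 1 count, and FOXJ1 rose from 182, 223 and 183 counts to 274, 267 and 271 (log2 change 0.27, edgeR adjusted p = 0.02165). LRRC6 and WDR63, which serve the dynein arms of motile cilia, had 11 to 20 counts in sh-KIF11. PRDM9 and SYCE1L, which act in meiosis, had 10 to 13.

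The mixed remainder of 18 held some of the largest folds. CCDC198, of little known function, had 1, 0 and 0 counts in the controls and 30, 57 and 48 after knockdown, or 118-fold (20.8 to 4685). RTN1, a reticulon of neuroendocrine cells, had 0, 1 and 1 counts against 41, 47 and 32, or 52.3-fold (14.2 to 437). SH3TC2, a Schwann cell protein, was at 0 in all sh-ctrl libraries and at 15, 13 and 11 after knockdown, a level at least 11.3-fold higher. FAM25A (chr10:87020294-87024730) had the highest level per length of the 77, with 2, 0 and 0 counts against 13, 15 and 24, and near-identical copies elsewhere in the genome make its reads uncertain. CCDC74A and CCDC74B are near-identical too, and both were members, with 50, 35 and 51 and 11, 18 and 31 counts in sh-KIF11. LOC100130449 (chr2:240449379-240456700), now named GPC1-AS1, had 2, 3 and 3 counts against 45, 43 and 37. It overlaps GPC1, which rose from 400, 408 and 311 counts to 809, 1017 and 962. Whether reads were counted by strand is not given in the sources used here, so its reads cannot be told apart from those of GPC1.

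**Figure D4:**
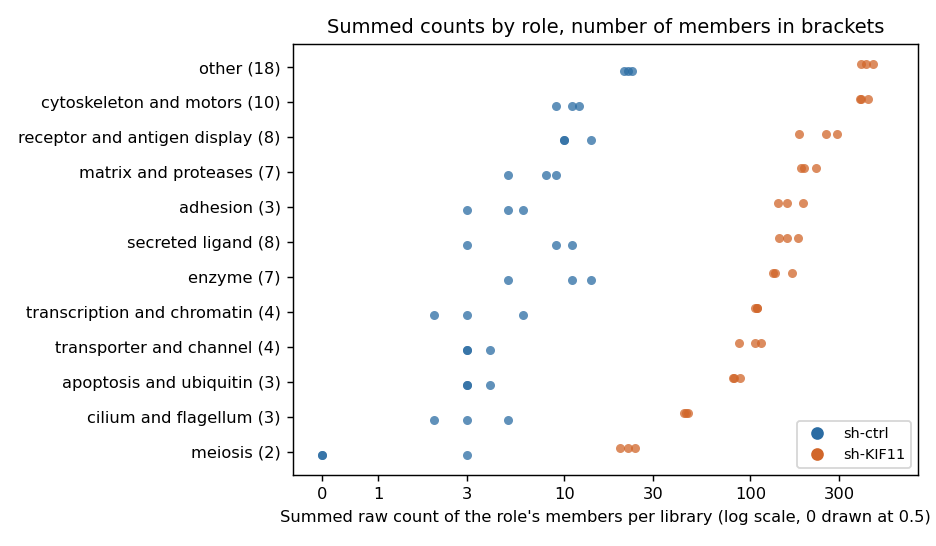
Summed raw counts per library of the genes of each role (points, 3 per group, logarithmic axis with 0 drawn at 0.5), with the number of genes in brackets. The sh-ctrl sums (blue) lie between 0 and 23 and the sh-KIF11 sums (orange) between 20 and 455; the choice of genes fixed that they do not overlap.

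The 77 were also grouped by the tissue in which they are best known, with no such grouping of the other silent genes to set beside it. From background knowledge, 23 are best known in the nervous system, 18 in epithelia, placenta or glands, 12 in leukocytes or myeloid cells, 12 in mesenchyme, vessels or endothelium, 5 in germ cells or testis, 3 in striated muscle and 1 in hepatocytes, a gene being counted in more than 1 where it fits. A further 15 had no assigned tissue. Lists of defining markers were set beside them, and since 1.12% of all silent genes became members, a list with few silent genes would seldom give one. Of 22 neuronal markers, 14 were silent in sh-ctrl and none of the 14 became a member, RBFOX3 staying at 1, 0 and 0 counts in sh-KIF11. The 6 neuronal markers with enough reads to test were all higher in sh-KIF11, against 34.4% of all tested genes. GAP43 (0, 4 and 0 counts against 13, 12 and 16), MAP2 and ELAVL3 passed the filter on low counts through sh-KIF11 alone. Their direction was thereby set by the filter. Of 24 striated muscle markers, 15 were silent, and MYBPH, which had been put in the list with its result known, was the one member. MYOD1 stayed at 0, 1 and 0 counts. Of the 8 other muscle markers tested, 5 were higher and 2 lower in sh-KIF11. TNNT3, a fast troponin, rose from 2, 5 and 5 counts to 40, 42 and 58, and passed the filter through sh-KIF11 alone. TNNI2, an abundant troponin, fell from 7597, 8741 and 7044 counts to 4800, 4765 and 4512. The summed level of the muscle list went from 430 to 500 CPM in sh-ctrl down to 257 to 268 CPM in sh-KIF11.

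Leukocyte markers gave no member among 8 silent genes, and PTPRC (CD45) stayed at 0, 1 and 0 counts in sh-KIF11. Their summed level went from 2503 to 3003 CPM in sh-ctrl to 525 to 658 CPM in sh-KIF11, nearly all of it LYZ, and 6 of the 9 tested were lower and 2 higher. Endothelial markers gave no member among 6, CDH5 stayed at 2, 0 and 0 counts, and the summed level went from 8.92 to 9.31 CPM up to 40.6 to 43.9 CPM, with TIE1 rising from 9, 14 and 4 counts to 364, 329 and 284. TIE1 passed the filter on low counts through sh-KIF11, so its direction was not free of the filter. The germ cell list had 13 silent genes, the squamous list 12, the fibroblast list 10, the pancreatic and neuroendocrine list 10, the gastric and airway list 7, the kidney list 6 and the intestinal list 2, and no gene of these lists became a member, which at a share of 1.12% says little about them. The part of cells of another type in the counts of the 77 was not tested beyond these levels.

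Few families gave more than 1 gene. By the letters of their symbols, there were 2 each from the cytochromes P450 (of 27 silent CYP genes), the leucine-rich repeat LRRC genes (of 33) and the solute carriers (of 110). Of all silent genes, 1.12% became members. The other tested genes of these families were called in both directions. Of 28 CYP genes 13 were higher and 7 lower, of 34 LRRC genes 12 and 8, and of 238 SLC genes 68 and 109. The order of the SLC genes turned to 89 higher and 74 lower when libraries were scaled by their totals alone. Over all tested genes, 34.4% were higher and 34.7% lower. Of 396 silent olfactory receptor genes, OR52N4 was the one member, with 10 counts in each sh-KIF11 library. By the gene ontology terms in the table, 25.9% of the 54 members with a term were at the plasma membrane, against 23.6% of 4658 other silent genes.

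The 77 lay on 21 chromosomes, with 8 each on chromosomes 1, 2 and 5. In the genome they spanned a median of 39.2 kb, against 15.6 kb for the other silent genes and 29.2 kb for the tested genes. The nearest tested genes that were no members came to 75 different genes, since 2 of them were each nearest to 2 members. Of the 75, 35 were higher and 22 lower in sh-KIF11 (48 and 13 when libraries were scaled by their totals alone), with a median log2 change of 0.16. Over all tested genes, 34.4% were higher and 34.7% lower (6621 and 2373 genes with totals alone). More than 2-fold higher were 14 of the 75 (18.7%), against 7.63% of all tested genes outside the 77. Some of the 14 passed the filter on low counts through sh-KIF11, among them LOC101927262, CXCL5, PCDHGA1 and MMP3. Among these neighbours were AREG beside EREG, CYP1A1 beside CYP1A2, CXCL5 beside CXCL1 and MMP3 beside MMP1. F2RL1, which encodes the protease-activated receptor PAR2 and lies 14.7 kb from S100Z, rose from 165, 170 and 179 counts to 1069, 1254 and 1227, and SERPINB8, 66.2 kb from SERPINB2, from 15, 27 and 42 to 101, 119 and 167. For 10 genes the nearest tested gene overlapped the gene itself, and MAD2L2, which overlaps DRAXIN, fell by 1.10 on the log2 scale.

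Promoter windows of RefSeq (GRCh38.p14), 250 bases before to 50 after the annotated start, were at hand for 59 of the 77 genes, 80 windows in all since a gene can have several starts, some of which overlap. Their CpG content lay between that of the other silent genes and that of all genes. The median ratio of observed to expected CpG was 0.615 in members, 0.383 in 6382 windows of other silent genes and 0.741 in 21987 windows of all genes. The ratio was over 0.6 in 51.2% of member windows, against 35.7% and 62.5%, and in at least 1 window of 50.8% of the member genes, against 39.6% and 70.8%. The values fell in a low and a high group, with few members between 0.3 and 0.4. GC content had a median of 62.2% in members, 55.3% in other silent genes and 62.3% in all genes.

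**Figure D5:**
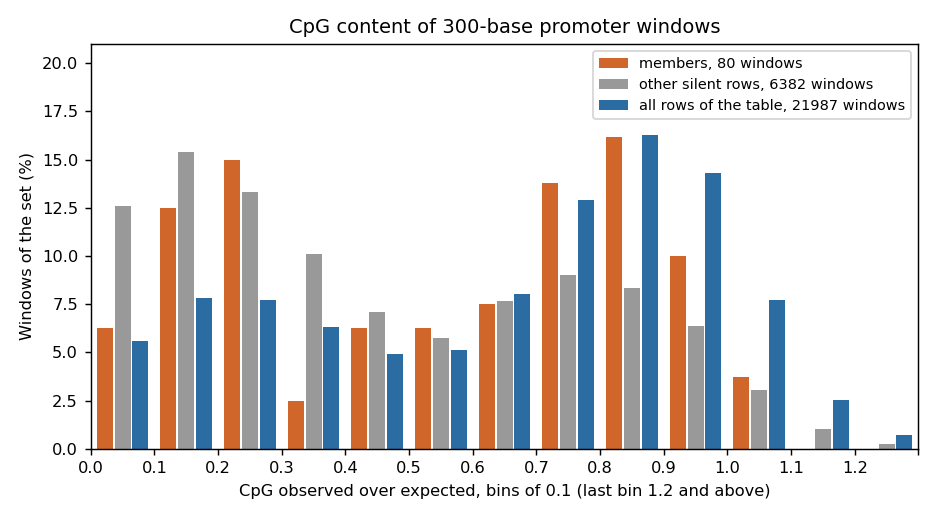
Share of promoter windows (percent of each set) by the ratio of observed to expected CpG in bins of 0.1, for the members (orange, 80 windows), the other genes silent in sh-ctrl (grey, 6382) and all genes of the table (blue, 21987). Members have a low group around 0.1 to 0.3 and a high group around 0.7 to 0.9.

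Motifs were searched as plain letters on both strands. TATAAA, the core of the TATA box, was in 13.8% of member windows, 16.5% of windows of other silent genes and 9.41% of all. GGGCGG, the core of an Sp1 site, was in 40 of the 80 member windows, 36.6% and 56.6%. TGANTCA, the letters of an AP-1 site, was in 8.75%, 8.29% and 6.18%, and CCAAT in 31.2%, 34.4% and 34.7%. GGAATG, the letters of a TEAD site, was in 7.50%, 13.6% and 12.2%, and CACGTG, an E-box, in 4 of the 80, 6.17% and 8.36%. In 6 member genes (10.2% of those with a window, against 7.73% of other silent genes and 4.07% of all) TATAAA began 25 to 35 bases before the start on the coding strand, a distance chosen after the matches were seen. Their windows are shown because they are the members with a plain TATA box in its usual place, and SERPINB2 and FAM25A also hold TGANTCA, 102 and 107 bases before the start. The capitals mark TATAAA or its reverse complement, which overlap in CYP1A2, and TGANTCA.
SERPINB2, chr18:63887455-63887754, plus strand: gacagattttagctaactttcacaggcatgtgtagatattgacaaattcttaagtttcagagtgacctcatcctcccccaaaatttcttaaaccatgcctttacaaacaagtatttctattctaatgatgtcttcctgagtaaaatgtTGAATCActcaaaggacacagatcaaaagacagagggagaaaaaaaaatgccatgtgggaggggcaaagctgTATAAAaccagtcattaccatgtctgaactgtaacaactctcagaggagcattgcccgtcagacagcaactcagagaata
FAM25A, chr10:87020044-87020343, plus strand: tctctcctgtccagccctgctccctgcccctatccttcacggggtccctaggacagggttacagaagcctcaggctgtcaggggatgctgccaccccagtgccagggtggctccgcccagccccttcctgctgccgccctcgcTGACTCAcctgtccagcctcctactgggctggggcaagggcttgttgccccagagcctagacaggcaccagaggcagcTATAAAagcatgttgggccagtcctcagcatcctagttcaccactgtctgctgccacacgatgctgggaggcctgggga
EREG, chr4:74364895-74365194, plus strand: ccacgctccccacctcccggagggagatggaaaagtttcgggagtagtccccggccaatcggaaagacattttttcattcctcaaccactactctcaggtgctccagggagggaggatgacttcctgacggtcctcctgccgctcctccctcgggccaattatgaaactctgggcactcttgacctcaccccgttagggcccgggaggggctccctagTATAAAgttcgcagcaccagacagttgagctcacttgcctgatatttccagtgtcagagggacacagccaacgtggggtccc
CYP1A2, chr15:74748595-74748894, plus strand: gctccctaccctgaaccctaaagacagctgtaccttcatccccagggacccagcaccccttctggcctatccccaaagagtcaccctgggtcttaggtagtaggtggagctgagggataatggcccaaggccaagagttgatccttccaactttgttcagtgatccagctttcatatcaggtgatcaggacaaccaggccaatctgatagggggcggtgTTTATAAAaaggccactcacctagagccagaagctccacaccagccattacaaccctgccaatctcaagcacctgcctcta
MUC19, chr12:40393144-40393443, plus strand: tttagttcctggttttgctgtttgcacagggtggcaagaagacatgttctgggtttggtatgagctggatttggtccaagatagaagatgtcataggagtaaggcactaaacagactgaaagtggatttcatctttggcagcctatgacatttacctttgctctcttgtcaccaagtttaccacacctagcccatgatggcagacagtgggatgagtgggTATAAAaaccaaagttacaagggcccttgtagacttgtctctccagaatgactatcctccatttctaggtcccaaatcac
RND3, chr2:150487618-150487917, minus strand: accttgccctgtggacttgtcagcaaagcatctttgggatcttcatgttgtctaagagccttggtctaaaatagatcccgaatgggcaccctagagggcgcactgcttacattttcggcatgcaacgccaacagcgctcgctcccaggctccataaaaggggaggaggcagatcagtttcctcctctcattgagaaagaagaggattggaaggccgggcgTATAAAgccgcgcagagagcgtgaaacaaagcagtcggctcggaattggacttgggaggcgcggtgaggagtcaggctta
The window of ALKAL2 is shown beside them as the opposite kind, with a CpG ratio of 1.09, a GC content of 77.7%, no TATAAA and 4 matches to GGGCGG or its reverse complement (capitals, of which a pair overlap).
ALKAL2, chr2:288042-288341, minus strand: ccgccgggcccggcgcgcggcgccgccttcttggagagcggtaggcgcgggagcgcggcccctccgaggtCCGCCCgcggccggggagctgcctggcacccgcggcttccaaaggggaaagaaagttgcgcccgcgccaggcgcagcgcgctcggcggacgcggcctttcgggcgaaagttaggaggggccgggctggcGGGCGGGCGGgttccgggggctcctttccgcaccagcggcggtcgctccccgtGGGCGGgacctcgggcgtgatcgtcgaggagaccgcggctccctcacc
The 7 genes shown had 12 to 68 counts in each of the sh-KIF11 libraries. A match of letters does not show that a factor was bound.

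On the scale that accounts for transcript length, FPKM, the 77 were low. The mean sh-KIF11 value ran from 0.0178 to 4.09 with a median of 0.224, and 17 genes stayed under 0.1. It reached 1 for FAM25A, MYBPH and LYVE1. In all sh-ctrl libraries, 9 were listed at 0. The choice itself depended on the scale: with at most 0.1 FPKM in each sh-ctrl and at least 0.5 in each sh-KIF11 library, 28 genes were chosen, 6 of them among the 77, and none in the opposite direction.

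To see the same measure in libraries that had no part in a choice, the genes were chosen anew with 1 library left out. Between 88 and 117 genes were then chosen. With a sh-ctrl library left out, 65.8% to 73.3% of them were at or under 3 counts in the library left out, the highest count there being 13. With a sh-KIF11 library left out, 73.3% to 87.5% of them were at or over 10 in the one left out. By construction, the genes that met the limit in the library left out were the same 77 each time. The shares therefore differ only by the number of genes chosen. With 1 library of each group left out, 142, 136 and 121 genes were chosen on the other 4, and in the pair left out the sh-KIF11 count was above the sh-ctrl count for 139, 135 and 119 of them. The opposite choice on the same 4 libraries gave 4, 3 and 4 genes. These are counts over genes of 1 pair of libraries each and carry no test, and with 3 libraries against 3 an exact two-sided permutation test could not give a p below 0.1.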

How the data were processed

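Polyadenylated RNA of HepG2 cells was sequenced in 3 sh-ctrl and 3 sh-KIF11 libraries. The authors deposited raw read counts per gene and FPKM (fragments scaled by transcript length and library size) per gene in 2 annotated tables. The submitters' processing notes name bcl2fastq 1.8.4, Trimmomatic, HISAT2 2.1.0, HTSeq 0.9.1, Cufflinks 2.2.1 and DESeq with the build GRCh38 (hg38), and whether counting used strand is not given in the sources used here. Columns were matched to samples by group and number. Genes were chosen on the counts as deposited, at most 3 in each sh-ctrl and at least 10 in each sh-KIF11 library. Genes outside the choice were tested with edgeR 4.0.16 (quasi-likelihood, TMM scaling, filterByExpr, Benjamini-Hochberg, two-sided, threshold 0.05) on R 4.3.3, of which 70 of the 77 also passed the filter but are given no test. The fit was tested on simulated data. Over 12318 genes it recovered 95.8% of the 190 planted changes that were tested and called 11 others. The 200 planted changes were of a single size and balanced between higher and lower, with a single fixed spread for all genes. The simulation therefore does not vouch for data in which most tested genes were called and the balance rests on the scaling. DESeq2 1.42.0 and limma 3.58.1 (log2 of FPKM plus 1) served as alternatives. Promoters, gene positions and gene spans came from RefSeq (GRCh38.p14), matched by NCBI gene number for all 77 genes, of which 59 had a promoter window. Intervals and floors used SciPy 1.17.1 and cover counting error only.

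Named were the 15 genes with the highest mean sh-KIF11 FPKM, the 10 with the largest lower bounds, those in a list or in a family with 2 or more, 3 on each side of each limit, their relatives, and KIF11. MYBPH, WNT11, NAV3 and CSMD3 stood in lists. Other genes were named after their values were seen, to describe each role, as were the relatives by function, the families of protocadherins, angiomotins, olfactory receptors, HOXA and CCDC74, and the roles and tissues, which rest on background knowledge. The genes and lists were chosen with earlier results of these data known. No source says whether the libraries came from separate cultures, so p-values measure only the spread between these samples, which may be technical. Within groups the libraries differed by more than counting noise (chi-square per degree of freedom 2.67 to 8.11). Same-numbered libraries did not deviate together (correlations 0.0744, -0.0574 and 0.0135), so they were not paired.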

Additional observations from a re-analysis of the deposited data

How the results depend on the processing

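The number of genes on in sh-KIF11 alone followed the limits: 4 with a ceiling of 0 counts, 160 with a ceiling of 5, 214 with a minimum of 5, 24 with a minimum of 20, 38 on counts scaled with TMM and 28 on FPKM, against 77. All 38 were among the 77. The opposite count was 4 with a ceiling of 5 and 7 with a minimum of 5, an alternative chosen after seeing the data, and 0 with a ceiling of 0, with a minimum of 20, on TMM-scaled counts and on FPKM (the last also chosen after seeing the data). With each library left out in turn, the first number was 88 to 117 (117 without sh-ctrl replicate 2) and the opposite one 0 to 2, since fewer libraries had to meet the limits. The median fold was 14.35 to 17.24 with a library left out, 19.9 with library totals alone and 16.9 with RLE size factors. Library totals alone moved the median log2 change of all tested genes by 0.24 and gave 6621 genes higher and 2373 lower, and limma on FPKM gave 5589 and 2619, against 4254 and 4294. DESeq2 called 8103 genes and edgeR 8548, and 7975 to 8749 were called with a library left out. KIF11 stayed lower under every alternative run, by -0.519 to -0.787 on the log2 scale. A replicate block gave 8607 genes, 4296 higher and 4311 lower, with KIF11 at -0.75; the numbers were not found to pair the libraries, and the choice of genes has no test to pair. With at most 3 reads per library in sh-ctrl, depth limits every fold to its lower bound.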
